A study of Mus musculus with 2 samples.

Results

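The 13 protein-coding genes of the mitochondrial genome (mt-coded) and 85 nuclear genes named for subunits of the same enzymes were followed in cultured mouse aortic vascular smooth muscle cells (VSMCs). Together these 98 genes of oxidative phosphorylation (OXPHOS) were taken by symbol from 32285 genes of a single-cell count table: the mt-Nd, mt-Co, mt-Atp and mt-Cytb genes, the a, b, c, s and v series of Nduf, Sdha to Sdhd, the Uqcr genes, Cox4 to Cox8 and the Atp5 genes. By symbol, 7 of the mt-coded genes belonged to complex I, 1 to complex III, 3 to complex IV and 2 to complex V, and the nuclear-coded genes comprised 38, 4, 8, 18 and 17 genes of complexes I to V. Ndufa4 and its relative Ndufa4l2 were counted with complex I by their symbols, although the Ndufa4 protein is now placed with complex IV. Ndufb1-ps, with 22587 UMIs, was also counted with complex I, although GENCODE vM21 annotates it as a non-coding RNA of a bidirectional promoter. Cyc1, the cytochrome c1 of complex III, and Ndufab1, a subunit of complex I, did not match these symbols and were left out.

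OXPHOS makes most of a resting cell's ATP. Complexes I and II pass electrons from NADH and succinate to ubiquinone, complex III hands them to cytochrome c, complex IV gives them to oxygen, and the proton gradient built on the way turns the rotor of complex V, the ATP synthase. Complexes I, III, IV and V mix subunits of both genomes, whereas complex II is coded by the nucleus alone. The mt-coded mRNAs are cut from long transcripts of a circular genome present in many copies per cell, while each nuclear subunit gene is transcribed from its own promoter, so the question put to the data was whether the nuclear-coded mRNAs followed the mt-coded ones over cultures and over cells. In VSMCs, mitochondrial respiration has been studied mostly in relation to the switch between contractile and proliferative states.

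The series held 4 cultures of commercial primary aortic VSMCs from C57BL/6 mice, used at low passage: cells from young mice (12 weeks), cells from old mice (58 to 78 weeks), young cells with 100 nM angiotensin II (AngII) for 48 hours, and old cells with 20 nM siRNA against Piezo1, a mechanosensitive ion channel (siPiezo1). The young and the old culture served as the controls, and the labels do not say which cultures received the non-targeting siRNA pool that they also list. Each culture was stained with 1 antibody that carries a DNA barcode (TotalSeq-A hashtag), and all 4 were mixed and run as 1 droplet library with counting of unique molecular identifiers (UMIs). The labels do not pair the hashtags with the cultures, so cells are named by hashtag number, tag 1 to tag 4. The study's schematic numbers the cultures young, old, young + AngII and old + siPiezo1 in that order but does not state that these are hashtag numbers. Tags 2 and 3 were therefore set against tag 1, and tag 4 against tag 2, as the contrasts that this order would imply. The first pair of contrasts shares the cells of tag 1, and the tag 2 cells enter 2 of the 3 contrasts.

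Of 13045 cells with at least 2218 gene UMIs and 200 genes, 3144 carried tag 1, 497 tag 2, 1500 tag 3 and 1529 tag 4, while 5307 carried no tag and 1068 more than 1. In 2649, 179, 1334 and 482 cells of tags 1 to 4 the leading hashtag had at least 3 times the UMIs of the next. The tag calls of most tag 2 and tag 4 cells are thus less clear. The tagged cells held between 5577355 UMIs (tag 2) and 24120561 UMIs (tag 1), with medians of 6816.5 to 10663 UMIs per cell. Scrublet called between 19.9% and 23.3% of the cells of each tag doublets and 59.7% of the cells with more than 1 tag. Acta2 transcripts, of smooth muscle actin, were found in 47.1% of cells and Cald1 in 97.8%, but Myh11, the myosin heavy chain of contractile smooth muscle, in 1.72%. Macrophage markers ran from Tyrobp, with 3 UMIs in all cells, to Csf1r, with 460 UMIs in 3.21% of cells. Endothelial markers ran from Tie1, with 0 UMIs, to Kdr, with 272 UMIs in 1.85% of cells. Fibroblast markers ran from Lum in 2.42% of cells to Col1a1 in 75.6% and Dcn in 81.4%. With 1 culture per tag and no replicate there is no test between tags: values are given with 95% intervals (exact Poisson for levels, exact binomial for ratios and shares of cells) that cover counting error only, and fewer mRNAs in a cell cannot be told apart from a lower yield of one kind of mRNA.

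The mt-coded mRNAs differed between the tags by far more than the nuclear-coded ones. Summed over the 13 genes, they made up 1.05% of gene UMIs in tag 1, 1.67% in tag 2, 0.587% in tag 3 and 1.65% in tag 4. Tag 3 was thus lowest, tag 1 next, and tags 2 and 4, whose cells had the lowest median hashtag counts, were close to each other. The ratio was 1.60 (1.58 to 1.61) for tag 2 to tag 1, 0.562 (0.558 to 0.566) for tag 3 to tag 1, and 0.991 (0.984 to 0.998) for tag 4 to tag 2. Barcodes with 1 to 100 UMIs, which hold mostly free RNA, had 1.70% mt-coded UMIs, a share above that of each tag. When 5% of each tag's UMIs were removed with the profile of those barcodes, the ratio was 1.65 for tag 2 to tag 1 and 0.523 for tag 3 to tag 1. The 5% was a set value and was not estimated from the cells.

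Complex I receives 7 subunits from the mitochondrial genome, all of them in the membrane arm that pumps protons. mt-Nd1 was at 665, 1317, 477 and 1257 counts per 1000000 gene UMIs (CPM) in tags 1, 2, 3 and 4. mt-Nd2 was at 487, 902, 299 and 881, and mt-Nd4 at 646, 1006, 358 and 998 CPM. Each of these 3 genes was lowest in tag 3 and highest in tag 2. mt-Nd3 (54.5, 126, 38.5 and 121 CPM) and mt-Nd6 (18.3, 36.9, 10.3 and 35.5), the only mRNA gene of the minus strand of the circle, had lower counts and the same order. With 5% free RNA removed, the ratio of mt-Nd6 went from 0.564 to 0.126 for tag 3 to tag 1 and from 2.02 to 3.04 for tag 2 to tag 1, and mt-Nd6 was 1.08% of mt-coded UMIs in barcodes with 1 to 100 UMIs against 0.175% in tag 1 and 0.221% in tag 2. Tag 3 held 154 mt-Nd6 UMIs, so a set 5% may remove more than its free RNA, and 0.126 is not a measured level. mt-Nd5 was at 111, 153, 54.2 and 137 CPM. mt-Nd4l, whose reading frame runs into that of mt-Nd4, was at 39.5, 60.8, 19.8 and 58.4. All 7 genes were at or above 1.38 times tag 1 in tag 2 and at or below 0.718 times tag 1 in tag 3.

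Complex III takes its cytochrome b, and complex IV its 3 core subunits, from the mitochondrial genome. mt-Cytb, the cytochrome b of complex III, was at 1110, 2314, 667 and 2328 CPM in tags 1 to 4. Of the 3 core subunits of complex IV, mt-Co1, which holds the site of oxygen reduction, was at 1907, 2159, 988 and 2171 CPM, and mt-Co2, which takes electrons from cytochrome c, at 1773, 2488, 912 and 2385. mt-Co3, the remaining core subunit, was at 2060, 3607, 1256 and 3659. Tag 3 was lowest for all 4 of these genes, but the step from tag 1 to tag 2 was unequal among them. It was 2.09-fold (2.04 to 2.13) for mt-Cytb, 1.75-fold (1.72 to 1.78) for mt-Co3, 1.40-fold (1.38 to 1.43) for mt-Co2 and 1.13-fold (1.11 to 1.15) for mt-Co1.

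Complex V takes its proton channel subunit, mt-Atp6, and the small membrane subunit mt-Atp8 from the same genome. mt-Atp6 was at 1573, 2505, 790 and 2491 CPM in tags 1 to 4, and mt-Atp8 at 10.0, 10.6, 4.55 and 14.4. For mt-Atp8 the ratio of tag 2 to tag 1 was 1.05 with an interval of 0.779 to 1.41, which includes 1. The 2 genes share 43 bases, and mt-Nd4l shares 7 bases with mt-Nd4, shown here because reads in a shared stretch, or from the mRNA that carries both frames, cannot be given to 1 gene, so the levels of mt-Atp8 and mt-Nd4l are uncertain. The stretches are read from GENCODE vM21 transcripts (GRCm38, plus strand) with the shared bases in capitals, all of them coding sequence:
mt-Atp8 and mt-Atp6, chrM:7897-7999: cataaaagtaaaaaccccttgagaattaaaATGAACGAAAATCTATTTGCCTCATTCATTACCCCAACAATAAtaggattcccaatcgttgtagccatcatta
mt-Nd4l and mt-Nd4, chrM:10137-10203: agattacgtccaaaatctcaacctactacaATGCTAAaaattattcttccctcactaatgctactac

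**Figure D1:**
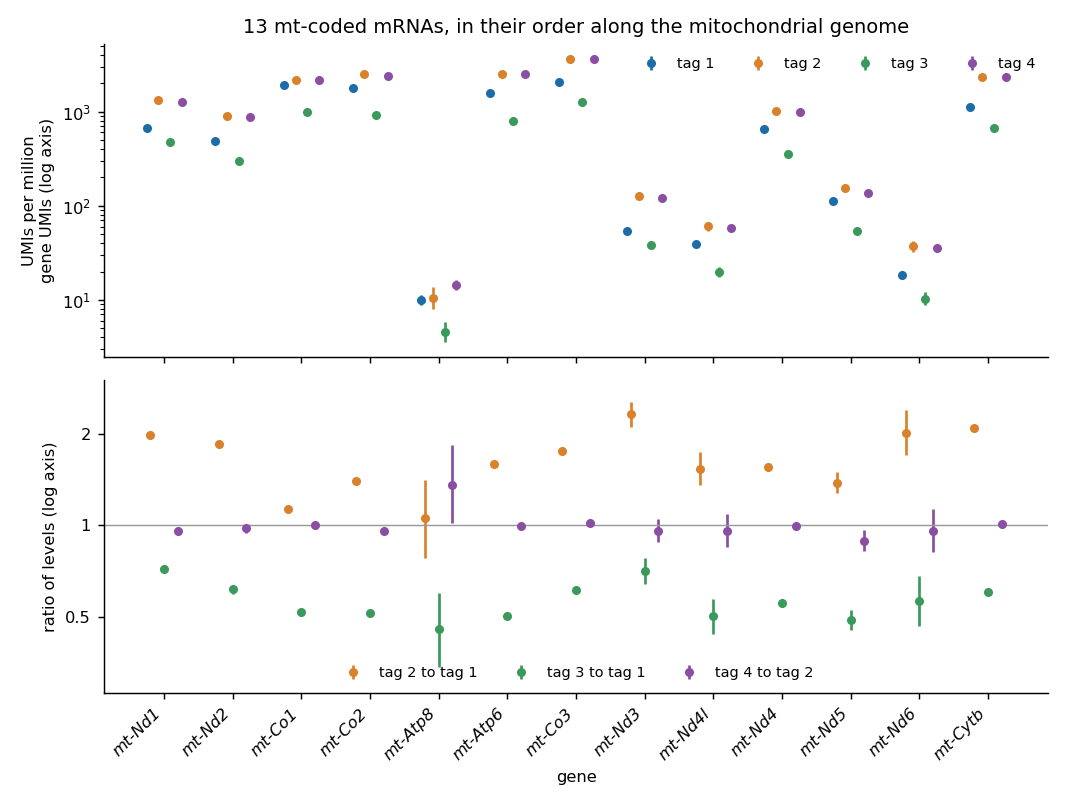
The upper panel plots the level of each of the 13 mt-coded mRNAs in each tag (CPM, log axis) and the lower panel the ratio between tags (log axis), both with 95% counting intervals, in gene order along the mitochondrial genome. Tag 3 is lowest for every gene, and the ratio of tag 2 to tag 1 runs from 1.05 for mt-Atp8 and 1.13 for mt-Co1 to 2.32 for mt-Nd3.

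Between tags 2 and 1, 11 of the 13 mt-coded mRNAs were at least 25% higher in tag 2 and none was at least 20% lower. Among the 8449 nuclear genes with at least 10 CPM in all cells, 20.2% were at least 25% higher and 17.9% at least 20% lower. The lowest ratios of tag 2 to tag 1 were those of mt-Atp8 (1.05), mt-Co1 (1.13), mt-Nd5 (1.38) and mt-Co2 (1.40). Between tags 3 and 1, all 13 were at 0.718 or less, against 16.4% of nuclear genes at least 20% lower and 20.0% at least 25% higher. Between tags 4 and 2, 12 of the 13 lay within 0.891 and 1.01, and mt-Atp8 was at 1.36 (1.02 to 1.84). Of the nuclear genes, 7.55% were at least 25% higher and 4.45% at least 20% lower in that comparison.

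The mt-coded share also varied widely among the cells of 1 tag. Its median over cells was 1.08% in tag 1, 1.84% in tag 2, 0.224% in tag 3 and 1.86% in tag 4, and the 90th percentile was 56.1, 28.5, 181 and 38.2 times the 10th percentile in those tags. Cells with under 0.1% mt-coded UMIs, far below the share of near-empty barcodes, made up 16.6% (15.3 to 18%) of tag 1, 9.86% (7.38 to 12.8%) of tag 2, 40.8% (38.3 to 43.3%) of tag 3 and 10.9% (9.40 to 12.6%) of tag 4. Tag 3 thus held many more cells with almost no mt-coded mRNA. Among cells with at least 0.5% mt-coded UMIs, which were 597 of 1500 cells in tag 3 and 2170 of 3144 in tag 1, the ratio of tag 3 to tag 1 was 0.927 in place of 0.562, and that of tag 2 to tag 1 was 1.41. In cells with 2 to 25% mt-coded UMIs, of which tag 3 kept 127 and tag 1 kept 447, the ratios were 1.06 and 1.08. Both cuts select cells by the share that is compared, so ratios nearer 1 follow in part from the cut itself. The nuclear-coded share had no such tail, with the 90th percentile at 1.67, 1.70, 1.88 and 1.68 times the 10th percentile in tags 1 to 4.

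**Figure D2:**
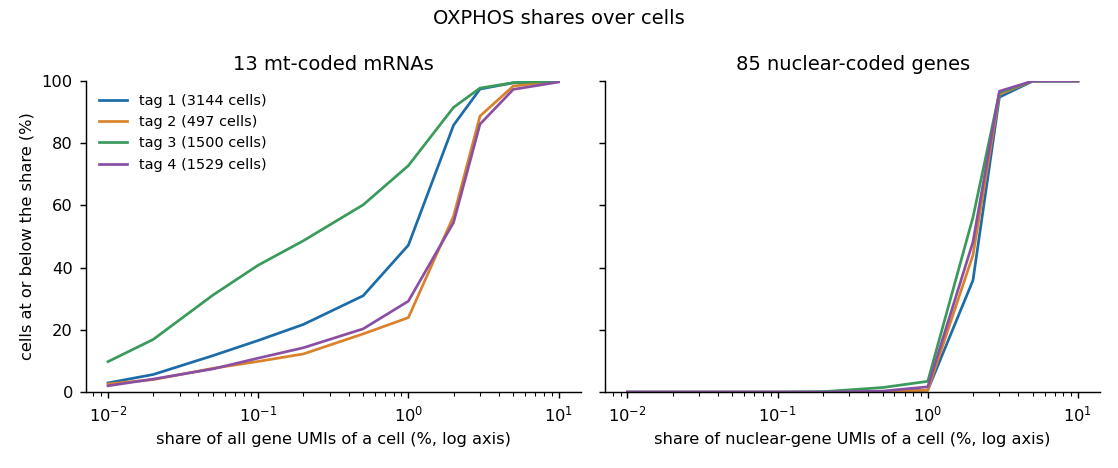
Each line gives, for the cells of 1 tag, the percent of cells (vertical axis) at or below a share of UMIs (horizontal log axis, percent), on the left for the 13 mt-coded mRNAs and on the right for the 85 nuclear-coded genes. The mt-coded lines are far apart, with 40.8% of tag 3 and 9.86% of tag 2 at or below 0.1%, whereas the nuclear-coded lines rise together between 1% and 3%.

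The 85 nuclear-coded genes together made up 2.13% of the UMIs of nuclear genes in tag 1, 2.07% in tag 2, 1.95% in tag 3 and 2.02% in tag 4, and 2.32% in the near-empty barcodes. Their ratio was 0.976 (0.970 to 0.983) for tag 2 to tag 1, 0.916 (0.911 to 0.920) for tag 3 to tag 1 and 0.973 (0.966 to 0.979) for tag 4 to tag 2. The nuclear-coded sum was therefore lower in tag 2 than in tag 1, where the mt-coded sum was higher, and in tag 3 both sums were lower, by 8.44% for the nuclear-coded and 43.8% for the mt-coded genes. The counting intervals are narrow because the sums rest on 113785 to 507249 UMIs, and they hold no variation between cultures.

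Of the 5 complexes, complex I had the lowest nuclear-coded ratios of tags 2 and 3 to tag 1. Its nuclear-coded genes summed to 0.712% of the UMIs of nuclear genes in tag 1, 0.652% in tag 2, 0.613% in tag 3 and 0.636% in tag 4, with ratios of 0.916 (0.905 to 0.926) for tag 2 to tag 1 and 0.861 (0.854 to 0.868) for tag 3 to tag 1. The 4 genes of complex II summed to 0.0293%, 0.0273%, 0.0269% and 0.0284%. Complex III was nearly level, at 0.195%, 0.20%, 0.191% and 0.194%. Complexes IV (0.575%, 0.575%, 0.543% and 0.553%) and V (0.614%, 0.621%, 0.571% and 0.607%) were level between tags 1 and 2 and lower in tag 3. In tag 4 each of the 5 complexes was within 0.961 and 1.04 times its share in tag 2, with complexes IV (0.961) and III (0.968) below complex I (0.975).

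Of each complex the 2 genes with the most UMIs are given here, and their ratios between tags lay between 0.811 (0.758 to 0.867) for Sdhb in tag 3 to tag 1 and 1.14 (1.10 to 1.19) for Uqcrh in tag 2 to tag 1. In complex IV, Cox4i1, the common form of subunit 4, was at 1145, 1140, 1085 and 1134 UMIs per 1000000 UMIs of nuclear genes (nuclear CPM) in tags 1 to 4, and Cox8a, the smallest subunit, at 819, 906, 799 and 808. In complex III, Uqcrh, the hinge protein beside cytochrome c1, was at 486, 554, 511 and 583, and Uqcrq, a small subunit, at 424, 419, 409 and 375. Of these 4 genes, Uqcrh was lowest in tag 1, while Uqcrq was lowest in tag 4. Ndufa4 was at 508, 542, 456 and 519 nuclear CPM and Ndufb9, an accessory subunit of complex I, at 424, 395, 420 and 405. In complex V, Atp5d, of the central stalk, was at 491, 520, 441 and 508, and Atp5g1, one of the genes for the rotor ring, at 471, 505, 474 and 451. In complex II, Sdhb, the iron-sulphur subunit, was at 109, 94.6, 88.0 and 91.0 nuclear CPM and Sdhc, a membrane anchor, at 82.0, 86.8, 85 and 93.2.

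Of the 85 nuclear-coded genes, 79 reached 10 CPM over all cells and entered the counts, 4 were below that level with at least 1 UMI, and Cox8b and Cox8c had no UMI. Between tags 2 and 1, 1 of the 79 was at least 25% higher and 10 at least 20% lower, shares of 1.27% and 12.7% against 20.2% and 17.9% of all nuclear genes. The 10 were 7 of 38 complex I genes (18.4%), 2 of 12 complex IV genes (16.7%) and 1 of 8 complex III genes (12.5%). The complex I share was thus near that of all nuclear genes. Between tags 3 and 1, none was at least 25% higher and 14 (17.7%) at least 20% lower, against 20.0% and 16.4%, and 12 of the 14 were complex I genes. Between tags 4 and 2, 1 was at least 25% higher and none at least 20% lower, against 7.55% and 4.45%. Of the 79 genes, 73 reached 50 CPM, against 3276 of the 8449 nuclear genes. Counting error takes more genes past these folds at low levels, and shares at a matched level were not worked out. The median ratio of the 79 genes was 0.977, 0.900 and 0.978 in the 3 comparisons, where that of all nuclear genes was 1.03, 1.03 and 1.01.

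**Figure D3:**
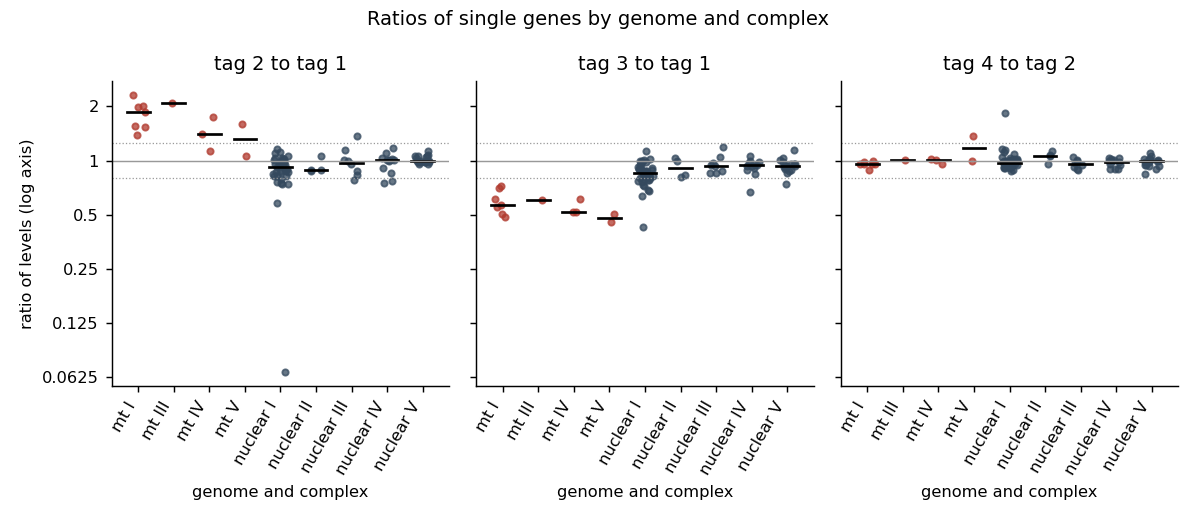
Each point is the ratio of a gene's level between 2 tags (log axis) for genes with at least 10 CPM, by genome and complex, with black bars at the median, dotted lines at 20% below and 25% above a ratio of 1, and sideways spread for legibility only. The mt-coded genes lie above 1 in tag 2 and below 1 in tag 3, while most nuclear-coded genes stay near 1, apart from Ndufa4l2 at 0.0662 and 0.428.

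Among the nuclear-coded genes with at least 50 CPM, the lowest ratios of tag 2 to tag 1 were those of 3 accessory subunits of complex I. Ndufb6 was at 251, 147, 171 and 130 nuclear CPM in tags 1 to 4, a ratio of 0.584 (0.542 to 0.629). Ndufa12, which sits near the electron entry module, was at 208, 154, 151 and 162 (ratio 0.739), and Ndufa5 at 126, 93.5, 91.7 and 102 (0.744). For all 3 genes tag 1 was above each of the other tags. The highest ratio was that of Uqcr11, a small subunit of complex III, at 231, 316, 276 and 292 nuclear CPM and 1.37 times (1.30 to 1.44) tag 1 in tag 2. Cox7a2l was at 285, 336, 266 and 345 (1.18), and Uqcrh at 1.14. Here tag 1 was below tags 2 and 4 for all 3 genes.

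Between tags 3 and 1, the lowest ratios among genes with at least 50 CPM were again those of complex I accessory subunits, and below that level Cox4i2, Ndufa4l2 and Cox6b2 were at 0.147, 0.428 and 0.666. Ndufa6 was at 227, 200, 145 and 184 nuclear CPM in tags 1 to 4, a ratio of 0.637 (0.606 to 0.670), followed by Ndufb6 at 0.681 and Ndufa12 at 0.723. Uqcr11 was highest at 1.20 (1.15 to 1.245), followed by Atp5md, a small membrane subunit of complex V, at 1.14, and Ndufb4, an accessory subunit of complex I, at 1.13. Atp5o, which links the stator to the head of complex V, was the complex V gene at least 20% lower, at 375, 370, 276 and 371 nuclear CPM and a ratio of 0.736 (0.709 to 0.764). Of the 38 complex I genes, 12 (31.6%) were at least 20% lower, against 16.4% of all nuclear genes, and none at least 25% higher, with a median ratio of 0.848.

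Between tags 4 and 2, the range among genes with at least 50 CPM was narrow. Atp5md was lowest, at 257, 274, 293 and 229 nuclear CPM and a ratio of 0.839 (0.790 to 0.892), ahead of Ndufs5, an accessory subunit of complex I (0.877, 0.821 to 0.937), and Uqcrc1, a core protein of complex III (0.887, 0.786 to 1.0). The highest were Ndufv2, an iron-sulphur subunit of complex I (1.16, 1.05 to 1.29), Ndufs8, another one (1.15, 1.01 to 1.31), and Sdha, the flavoprotein of complex II (1.12, 0.990 to 1.28). The intervals of Uqcrc1 and Sdha include 1.

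Several subunits of complex IV have a second gene used in particular tissues or in low oxygen. Ndufa4l2 and Cox6b2 had another order over the tags than the common Ndufa4 and Cox6b1. Cox4i2 had the same order as Cox4i1, with ratios between tags further from 1. Ndufa4l2, a hypoxia-induced relative of Ndufa4, was at 49.6, 3.28, 21.2 and 6.00 nuclear CPM in tags 1 to 4. Tag 1 was thus highest and tag 2, with 18 UMIs in all, lowest, at 0.0662 times (0.0391 to 0.105) tag 1. Ndufa4l2 made up 8.89% (8.41 to 9.38%) of the UMIs of the pair with Ndufa4 in tag 1, 0.602% in tag 2, 4.45% in tag 3 and 1.14% in tag 4. Ndufa4 itself was at 1.07 times tag 1 in tag 2 and 0.897 times in tag 3. Ndufa4l2 was also the single nuclear-coded gene at least 25% higher between tags 4 and 2, at 1.83 (1.10 to 3.21). With 18 UMIs in tag 2 the ratio moved with the cells kept, and was 1.37 in cells without dividing-marker UMIs, 2.82 after thinning to 5000 UMIs, 3.28 in cells with at least 0.5% and 5.65 in cells with 2 to 25% mt-coded UMIs. The ratio of tag 2 to tag 1 ranged from 0.0256 in cells with 2 to 25% mt-coded UMIs to 0.0785 in those without dividing-marker UMIs.

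Cox4i2, the form of subunit 4 known from lung and from low oxygen, was at 15.6, 7.29, 2.29 and 7.13 nuclear CPM in tags 1 to 4. It was highest in tag 1 and lowest in tag 3, at 0.147 times (0.10 to 0.209) tag 1, and made up 1.34%, 0.636%, 0.211% and 0.625% of the UMIs of the pair with Cox4i1. Cox6b2, the testis form of subunit 6b, was at 40.1, 30.1, 26.7 and 31.1 nuclear CPM, and was 8.54%, 7.14%, 6.60% and 8.12% of its pair with Cox6b1. In cells without a UMI of dividing-cell markers the ratios of Cox6b2 turned above 1, to 1.30 for tag 2 and 1.05 for tag 3, and the ratio of Cox4i2 for tag 2 went from 0.468 to 0.964, that for tag 3 being 0.208. The muscle forms Cox7a1 and Cox6a2 were near absent, with 207 and 27 UMIs in all cells against 48217 for Cox7a2 and 27519 for Cox6a1, and the muscle form Cox8b had none against 94581 for Cox8a. Cox7b2 had 19 UMIs. The 3 genes for the rotor ring of complex V, Atp5g1, Atp5g2 and Atp5g3, which code for the same mature protein, held 38.7%, 37.5% and 23.8% of their joint UMIs in tag 1 and 36%, 39.9% and 24.2% in tag 4, so that Atp5g2 led in tag 4 and Atp5g1 in the other tags. Reads that fit near-identical copies equally well may be lost, so levels in such families are uncertain.

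Promoters of the nuclear-coded genes were searched for sequences of factors long linked to them: NRF1 (core CGCATGCG), the ETS family that includes GABPA (CCGGAAG) and YY1 (AANATGGCG), on both strands of the 250 bases before the start site. RefSeq promoters (GRCm38.p6) matched 69 of the 85 genes, 67 by symbol and 2 by synonym. The remaining 16 genes had no entry. The NRF1 core was in 6 of 69 promoters (8.70%) against 1.58% of 27025 promoters of all genes, the ETS letters in 11 (15.9%) against 7.05%, and the YY1 letters in 1 (1.45%) against 1.12%. Ndufb6 and Uqcr11, at the lower and the upper end of the ratios of tag 2 to tag 1, both held ETS letters, and Atp5l and Cox6a1 held both NRF1 and ETS letters. The 4 promoters are shown 5′ to 3′ on the strand of the gene, ending at the base before the start, with these matches in capitals, none of which overlap:
Ndufb6, chr4:40279422-40279671, minus strand: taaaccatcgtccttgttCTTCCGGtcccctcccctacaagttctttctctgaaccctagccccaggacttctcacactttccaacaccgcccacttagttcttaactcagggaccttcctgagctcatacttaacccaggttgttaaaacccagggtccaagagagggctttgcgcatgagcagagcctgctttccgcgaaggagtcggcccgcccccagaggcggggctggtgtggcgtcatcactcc
Uqcr11, chr10:80406822-80407071, minus strand: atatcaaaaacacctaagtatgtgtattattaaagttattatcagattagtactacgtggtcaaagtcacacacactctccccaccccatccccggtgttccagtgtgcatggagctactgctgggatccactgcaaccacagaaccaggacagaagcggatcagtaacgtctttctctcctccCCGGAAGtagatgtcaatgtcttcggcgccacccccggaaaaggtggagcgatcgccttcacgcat
Atp5l, chr9:44920743-44920992, minus strand: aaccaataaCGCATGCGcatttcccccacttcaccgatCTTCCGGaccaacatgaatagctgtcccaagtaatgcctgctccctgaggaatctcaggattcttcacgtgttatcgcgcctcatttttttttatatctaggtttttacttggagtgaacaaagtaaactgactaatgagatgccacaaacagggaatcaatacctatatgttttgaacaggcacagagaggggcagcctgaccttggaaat
Cox6a1, chr5:115348959-115349208, minus strand: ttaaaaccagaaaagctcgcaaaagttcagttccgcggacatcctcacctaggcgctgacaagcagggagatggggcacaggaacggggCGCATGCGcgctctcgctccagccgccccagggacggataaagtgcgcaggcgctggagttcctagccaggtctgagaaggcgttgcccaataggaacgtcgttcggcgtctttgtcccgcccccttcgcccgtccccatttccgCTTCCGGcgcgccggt
A match describes these letters only and is not evidence that a factor binds there.

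Over the cells of each tag, the nuclear-coded share did not rise with the mt-coded share. Pearson's r between the mt-coded share of gene UMIs and the nuclear-coded share of nuclear-gene UMIs was -0.17 over the 3144 cells of tag 1, -0.25 over 497 cells of tag 2, -0.18 over 1500 cells of tag 3 and -0.26 over 1529 cells of tag 4, with Spearman's rho at -0.15, -0.16, -0.13 and -0.20. Thinning to 5000 UMIs left out shallower cells and kept 2397, 476, 1364 and 1415 cells of tags 1 to 4. In these, Pearson's r was -0.12, -0.18, -0.10 and -0.19, which is weak in counts this sparse. All points of a tag come from 1 culture and 1 library and share depth, and cell depth itself had an r of -0.16 to -0.32 with the mt-coded share and of -0.13 to -0.28 with the nuclear-coded share.

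Within each genome the members did go together. When the 13 mt-coded genes were divided alternately into 2 sets, the shares of the sets had an r of 0.94 in tag 1, 0.95 in tag 2, 0.97 in tag 3 and 0.97 in tag 4 over cells. For 2 sets of the nuclear-coded genes r was 0.68, 0.75, 0.81 and 0.78, and 0.56, 0.65, 0.70 and 0.60 after thinning. The nuclear-coded share varied over cells with a coefficient of variation of 21.5% to 27.6%, where counting alone would give 7.25% to 8.71%. Nuclear-coded genes of complexes I and V had an r of 0.56 to 0.74, and those of complexes III and IV 0.36 to 0.54. The nuclear-coded share also went with the mitochondrial ribosomal proteins, which are nuclear genes as well (r 0.59 to 0.64), and with the cytosolic ribosomal proteins (0.42 to 0.56), while the mt-coded share had an r of -0.15 to -0.26 with the former and of -0.21 to -0.34 with the latter. In cells thinned to 5000 UMIs, the 73 single members with at least 50 CPM had a median r with the mt-coded share of -0.018, -0.039, -0.024 and -0.041 in tags 1 to 4, with 22, 14, 19 and 12 of them above 0, against a median of 0.010, 0.0075, 0.014 and 0.0055 for all 3276 nuclear genes at that level.

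The cells of each tag were then divided by mt-coded share into 5 bins of equal cell number. From the lowest to the highest bin of tag 1, the mt-coded share rose from 0.0507% to 2.38%, while the nuclear-coded share went from 2.18% through 2.15%, 2.15% and 2.09% to 2.04%. In tag 2 the mt-coded share went from 0.174% to 3.32% and the nuclear-coded share from 2.19% to 1.99%. In tag 3 these were 0.0107% to 2.03% and 2.07% to 1.86%, and in tag 4 0.131% to 3.55% and 2.12% to 1.91%. A 46.8-fold, 19.1-fold, 189-fold and 27.1-fold range of mt-coded mRNA in tags 1 to 4 thus came with nuclear-coded ratios of 0.938 (0.930 to 0.946), 0.909 (0.893 to 0.925), 0.899 (0.889 to 0.910) and 0.905 (0.895 to 0.915). Median UMIs per cell fell over the same bins, with tag 1 going from 7861 to 6480.5, tag 2 from 14106 to 10137, tag 3 from 10664 to 8040.5 and tag 4 from 12472 to 8462, and the cytosolic ribosomal share fell from 20.6% to 18.8%, 22.0% to 20.7%, 19.9% to 17.4% and 22.3% to 20.1%. Malat1, a non-coding RNA of the nucleus, went from 12377 to 18000, 10519 to 17921, 9826.5 to 21291 and 11173 to 18289 nuclear CPM from the lowest to the highest bin. Scrublet calls went from 22.9% to 31.7%, 30% to 11.1%, 12.3% to 33.7% and 29.7% to 13.4% of cells. The part of depth, ribosomal share, Malat1 and doublets in the nuclear-coded values was not tested.

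**Figure D4:**
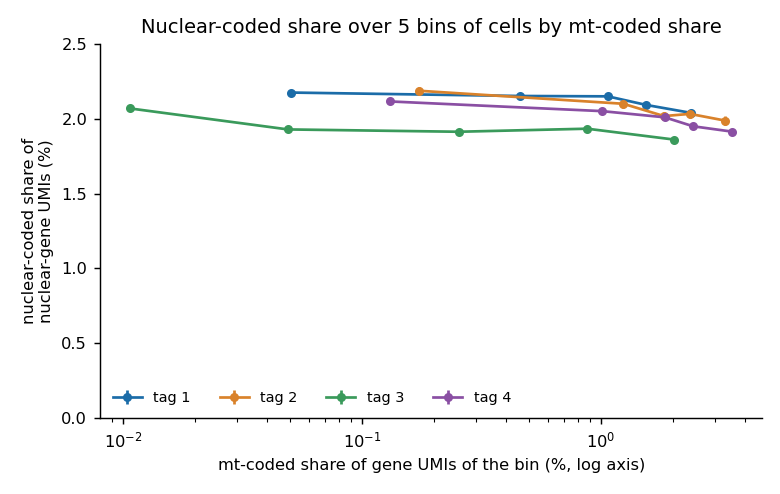
Each point is 1 of 5 bins of the cells of a tag ordered by mt-coded share, with the mt-coded share of the bin on the horizontal log axis (percent of gene UMIs) and the nuclear-coded share on the vertical axis (percent of nuclear-gene UMIs, 95% counting intervals no larger than the points). The lines are nearly flat, with tag 3 going from 2.07% to 1.86% over a 189-fold range of mt-coded share.

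Gene by gene, fewer of the nuclear-coded members than of all nuclear genes were at least 25% higher in the highest than in the lowest bin, while the share at least 20% lower was below that of all genes in tags 1 and 4 and above it in tags 2 and 3. Of 73 members with at least 50 CPM, none was at least 25% higher and 2 (2.74%) were at least 20% lower in tag 1, where 20.8% and 4.49% of 3276 nuclear genes were. In tag 2 the numbers were 2 (2.74%) and 11 (15.1%), against 23.8% and 13.3%, in tag 3 they were 2 (2.74%) and 9 (12.3%), against 25.6% and 7.69%, and in tag 4 none and 5 (6.85%), against 22.2% and 9.77%. The median ratio of the members was 0.951, 0.912, 0.920 and 0.906, where that of all 3276 genes was 1.04, 1.03, 1.05 and 1.02. Ndufb6 was at least 20% lower in tags 1, 3 and 4. Ndufs8 was at least 25% higher in tags 2 and 3 and at least 20% lower in tag 4.

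The make-up of the mt-coded mRNAs differed between tags as well as their sum. Tag 1 had 1.72 (1.69 to 1.75) mt-Co1 UMIs per mt-Cytb UMI, tag 2 had 0.933 (0.910 to 0.957), tag 3 had 1.48 (1.44 to 1.52) and tag 4 had 0.933 (0.919 to 0.946). Tags 1 and 3 were thus high and tags 2 and 4 low, unlike the summed share, in which tags 1 and 3 differed 1.78-fold. Near-empty barcodes were at 1.5 (1.43 to 1.56). Within tags the ratio was higher in cells with more mt-coded mRNA, going from 1.32 in the lowest bin to 1.78 in the highest in tag 1, from 0.707 to 0.991 in tag 2, and from 0.732 to 1.01 in tag 4. In tag 3 it was 1.35 with a wide interval of 0.866 to 2.13 in the lowest bin, 1.01 in the next, and 1.58 in the highest.

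Cells were also grouped by expression with all OXPHOS and other mt-coded genes left out, which gave 14 clusters (Leiden, resolution 0.8), described by their leading genes. Over 12 of them the nuclear-coded share stayed between 1.90% and 2.24%, although the mt-coded share ran from 0.590% to 2.06%. These 12 include cluster 5, in which Scrublet called 93.9% of 1222 cells doublets and 36.4% carried more than 1 tag. Cluster 1, led by Clu, and cluster 3, led by Hist1h1b and Mki67, in which 21.0% and 20.5% of cells carried tag 4, had 1.85% and 1.83% mt-coded UMIs. Cluster 4, led by Lce1g and Wnt2, with 46.7% of cells of tag 3, had 0.630%. Cluster 2, led by interferon-response genes such as Ifit3 and with 89.5% of its 1925 cells of tag 1, had 1.01%. Their nuclear-coded shares were 2.06%, 2.02%, 2.06% and 2.17%. Clusters 8 (557 cells) and 11 (184 cells), with 93.5% and 92.9% of cells of tag 1, also had such genes among their leading genes, Ifi206 and Ifit3. Cells of tags 2, 3 and 4 made up 0%, 0.312% and 0.0519% of cluster 2 and 0% of clusters 8 and 11. Most of the 3144 cells of tag 1 thus lay in clusters 2, 8 and 11. Tag 1 is the reference of the first pair of contrasts, and the part of these clusters in its ratios was not tested.

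Clusters 9 and 13 stood apart in the nuclear-coded genes. Cluster 9 (494 cells, led by Crct1 and Camk1d) had 3.30% nuclear-coded and 1.41% mt-coded UMIs, with a median of 3339 UMIs per cell, 31.9% of UMIs from cytosolic ribosomal proteins and 1092 CPM of Malat1. Cluster 13 (176 cells, led by Gm12153 and Zfp804a) had 0.704% nuclear-coded and 3.20% mt-coded UMIs, with a median of 4161 UMIs, 5.13% ribosomal and 96667 CPM of Malat1. Malat1 is a nuclear non-coding RNA, and in the other clusters it was between 11178 and 22406 CPM. Of these cells 77.1% and 52.8% carried no tag. Over all 14 clusters r between the mt-coded and nuclear-coded share was -0.54, over the 12 without these 2 it was -0.14, and at resolution 0.3, with 7 clusters, 0.12. Without clusters 9 and 13 the ratios between tags were 0.971 and 0.920 for the nuclear-coded sum in tags 2 and 3 and 0.977 in tag 4 to tag 2, and r over the cells of tag 3 was -0.11.

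The clusters also differed in the make-up of the mt-coded mRNAs. Clusters 2, 8, 11 and 12, with 76.2% to 93.5% of their cells from tag 1, had between 1.78 and 2.12 mt-Co1 UMIs per mt-Cytb UMI, and clusters 4 and 7, with 46.7% and 49.3% from tag 3, had 1.61 and 1.58. Clusters 1, 3, 6 and 10, with 17.3% to 63.3% from tag 4, had between 0.904 and 0.987. Ndufa4l2 was at 68.5, 54.2, 30.04 and 13.9 nuclear CPM in clusters 2, 8, 11 and 12, 20.7 and 24.0 in clusters 4 and 7, and 3.21, 2.51, 4.62 and 8.68 in clusters 1, 3, 6 and 10. Cluster 12 was thus below clusters 4 and 7 in this gene, although above them in mt-Co1 per mt-Cytb. Clusters 2, 8, 11 and 12 were thus mostly of tag 1, whereas 59.9% to 67.9% of the cells of clusters 1, 3 and 6 and 36.7% and 39.3% of those of clusters 4 and 7 carried no tag, so most cells of clusters 1, 3 and 6 cannot be assigned to a tag.

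**Figure D5:**
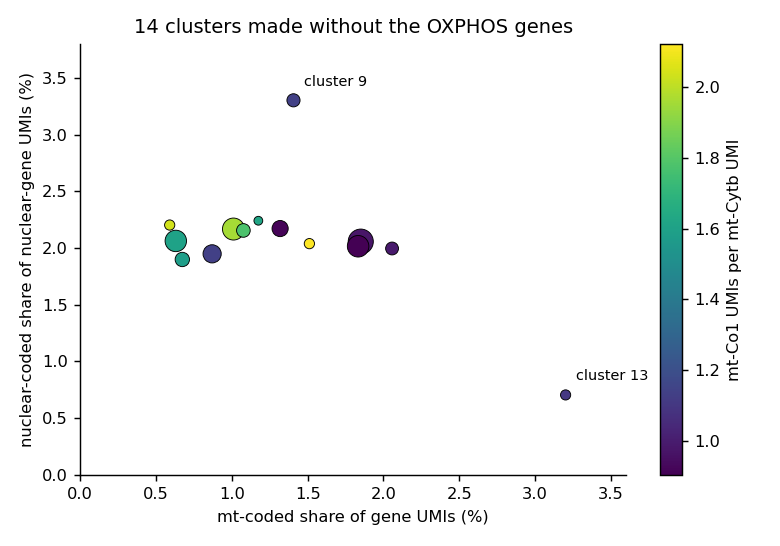
Each circle is a cluster of cells made without the OXPHOS genes, placed by its mt-coded share of gene UMIs and its nuclear-coded share of nuclear-gene UMIs (percent), with area rising with cell number and colour giving mt-Co1 UMIs per mt-Cytb UMI. Of the 14 clusters 12 lie between 1.90% and 2.24% nuclear-coded, with cluster 9 above at 3.30% and cluster 13 below at 0.704%.

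Other genes of the same pathway were counted from lists of nuclear genes by function, with at least 10 CPM, and their counts are to be read against the shares of all nuclear genes, 20.2% at least 25% higher and 17.9% at least 20% lower in tag 2 to tag 1, and 20.0% and 16.4% in tag 3 to tag 1. Of 39 OXPHOS assembly factors, 3 (7.69%) were higher and 6 (15.4%) lower by these folds in tag 2, and 6 (15.4%) and 5 (12.8%) in tag 3. The 39 include Ndufab1, which is a subunit of complex I. Cox17, which brings copper to complex IV, was at 147, 115, 150 and 107 nuclear CPM in tags 1 to 4. Of 78 mitochondrial ribosomal proteins, which translate the mt-coded mRNAs, 2 (2.56%) and 12 (15.4%) were past these folds in tag 2 and 5 (6.41%) and 16 (20.5%) in tag 3, with medians of 0.949 and 0.967. Of 9 genes for transcription and mRNA stability in mitochondria, 2 (22.2%) and 3 (33.3%) were past these folds in tag 2 and 1 (11.1%) and 2 (22.2%) in tag 3. Tfam, which packs and activates the mitochondrial genome, was at 19.9, 25.7, 20.9 and 22.3, Tfb2m, which opens its promoters, at 16.8, 25.3, 20.2 and 25.6, and Slirp, which shields the mt-coded mRNAs, at 90.035, 63.3, 78.5 and 63.2 nuclear CPM. Pnpt1, which takes part in their decay, was at 43.3, 19.1, 23.0 and 18.7, highest in tag 1. Ssbp1, with the most UMIs of the 9, was at 74.3, 74.0, 81.7 and 70.5, and Lrpprc at 25.6, 26.3, 27.3 and 27.5. Both stayed within the folds. Of 10 nuclear regulators, 2 (20%) were higher and none lower in tag 2, and 3 (30%) were higher and 1 (10%) lower in tag 3, with medians of 1.14 and 1.13. The 1 that was lower was Hif1a, of the response to low oxygen, at 349, 394, 196 and 364.

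Genes that supply OXPHOS were read in the same way. Of 13 genes of the TCA cycle, which makes the NADH and succinate, 2 (15.4%) were at least 25% higher and 1 (7.69%) at least 20% lower in tag 2 to tag 1, and 1 and 0 in tag 3 to tag 1, with medians of 1.07 and 1.14. Of 11 electron carriers and membrane carriers, 0 and 2 (18.2%) were past the folds in tag 2 and 1 (9.09%) and 4 (36.4%) in tag 3, with Cycs, cytochrome c, at 232, 257, 291 and 235 nuclear CPM in tags 1 to 4. The 11 include Vdac1, Vdac2 and Vdac3, of the outer membrane, and Cyc1, a subunit of complex III. Glycolysis, the route to ATP that does not need the complexes, had 13 of 15 genes (86.7%) at least 20% lower in tag 3 to tag 1, against 16.4% of all nuclear genes, and 5 of 15 (33.3%) in tag 2 to tag 1, against 17.9%. Gapdh was at 1622, 1500, 1136 and 1444, and Ldha at 769, 675, 584 and 640. In tag 4 to tag 2, 1 of the 15 was at least 25% higher and none at least 20% lower, against 7.55% and 4.45%. Dividing-cell markers were lower in tag 3 as well, with 6 of 8 at least 20% lower and ratios of 0.390 to 0.888. In cells without a UMI of these markers the mt-coded ratio of tag 3 to tag 1 was 0.525. That cut kept 1143 of 3144 tag 1 cells and 454 of 1500 tag 3 cells. It depends on depth, with median UMIs of 6816.5 in tag 1 and 9453.5 in tag 3, and the part of division was not tested. All 7 VSMC markers with at least 10 CPM were at 0.780 or less in tag 4 to tag 2. Of all nuclear genes, 4.45% were at least 20% lower there, and the 79 nuclear-coded members had a median of 0.978.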

How the data were processed

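The authors deposited raw UMI counts, made with Cell Ranger 4 (version from the file header), for 32285 genes and 4 hashtags over 2472397 barcodes with no cell filter; the build was not given in the sources used here. Coordinates are those of GENCODE vM21 (GRCm38), matched by Ensembl identifier for all 98 members. Cells had at least 200 genes and 2218 gene UMIs (a minimum set at 10 times below the 99th percentile of UMIs among the 10000 deepest barcodes), and a tag was given where 1 hashtag alone exceeded its cutoff (36, 52, 61 and 41 UMIs for tags 1 to 4). Levels of mt-coded genes are per 1000000 gene UMIs (CPM) and those of nuclear-coded genes per 1000000 UMIs of nuclear genes (nuclear CPM), so that the mt-coded sum does not enter their denominator. UMIs were counted from the 3′ end of mRNAs, so levels carry no length term. Cells called doublets by Scrublet (scanpy 1.11.5) were kept and left out in an alternative. The ratio and its interval were tested on simulated counts. Clustering used 2000 variable genes, 30 components and 20 neighbours. Analyses used Python 3.11.15, NumPy 2.4.6, SciPy 1.17.1, pandas 2.3.3, scikit-learn 1.9.0, leidenalg 0.10.2 and matplotlib 3.10.9. Genes were named by rule: the 13 mt-coded genes, the 2 members of each complex with the most UMIs, the 3 highest and 3 lowest ratios per comparison among nuclear-coded members with at least 50 CPM, the isoform pairs, and up to 4 examples of each other list with the most UMIs; Atp5o, Cox17, Tfam, Tfb2m, Txn2, Pdk4, Hspd1, Ddit3 and the clusters and promoters shown were chosen after their values were seen. The members and lists were chosen with earlier results of these data known. The hashtag library entered only through the tags.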

Additional observations from a re-analysis of the deposited data

How the results depend on the processing

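With 1 culture per tag, no alternative measures variation between cultures, and levels from few UMIs, such as those of mt-Atp8, Cox4i2 and Ndufa4l2 in tag 2, are limited by depth. Ratios are given for tag 2 to tag 1, tag 3 to tag 1 and tag 4 to tag 2 in that order. The mt-coded sum, at 1.60, 0.562 and 0.991, was at 1.49, 0.525 and 1.07 where the leading hashtag had at least 3 times the UMIs of the next, 1.72, 0.476 and 1.01 without Scrublet doublets, 1.57, 0.532 and 0.921 in cells with Y-linked UMIs and no Xist, 1.08, 1.06 and 1.03 at an mt-coded share of 2 to 25%, 1.56, 0.525 and 1.06 without dividing-marker UMIs, 1.41, 0.927 and 1.002 at a share of at least 0.5%, and 1.68, 0.578 and 0.974 after thinning. With 5% free RNA removed the first pair was 1.65 and 0.523, and without clusters 9 and 13 the last pair was 0.545 and 0.978. The stricter tags kept 2649, 179, 1334 and 482 cells of tags 1 to 4. The nuclear-coded sum, at 0.976, 0.916 and 0.973, was at 0.991 for tag 2 and 0.953 for tag 4 with the stricter tags, 0.959 for tag 2 and 0.901 for tag 3 without doublets, 0.991 for tag 4 by Y-linked UMIs, 0.9999, 0.876 and 0.959 at 2 to 25%, 0.925 for tag 3 and 0.958 for tag 4 without dividing-marker UMIs, 0.969 for tag 2 and 0.901 for tag 3 at 0.5% or more, 0.988 for tag 2 and 0.926 for tag 3 after thinning, 0.911 for tag 3 without free RNA, and 0.920 for tag 3 both without clusters 9 and 13 and per all gene UMIs. With no minimum level, 2, 1 and 2 nuclear-coded genes were at least 25% higher and 2 at least 20% lower in tag 4, and at 50 CPM 0 were higher in tag 4. At 2 to 25%, r over tag 3 cells was -0.40. Over clusters r was 0.12 at resolution 0.3 and -0.14 without clusters 9 and 13. Of 387 ratios of single genes, 369 kept their side of 1. The others were, at 2 to 25%, tag 3 to tag 1 of mt-Nd1 (1.34), mt-Nd2 (1.12), mt-Co1 (1.002), mt-Atp8 (1.19), mt-Co3 (1.16), mt-Nd3 (1.15), mt-Nd4 (1.04), mt-Nd6 (1.03) and mt-Cytb (1.11) and tag 2 to tag 1 of mt-Co2 (0.954) and mt-Nd5 (0.944), at 0.5% or more tag 3 to tag 1 of mt-Nd1 (1.19), mt-Nd2 (1.02), mt-Co3 (1.01) and mt-Nd3 (1.16), by Y-linked UMIs tag 4 to tag 2 of mt-Atp8 (0.913), and without dividing-marker UMIs Cox6b2 in tag 2 (1.30) and tag 3 (1.05). Both cuts on mt-coded share select cells by the quantity compared, and causes of the other shifts were not tested. The rule on Y-linked UMIs and Xist kept 1700, 97, 833 and 211 cells, out of 3144, 497, 1500 and 1529 of tags 1 to 4. It thus kept a smaller part of tags 2 and 4, and the part of the sex of the cells in the ratios was not tested. The 0.5% minimum and the omission of clusters 9 and 13 were chosen after seeing the data. No paired analysis was possible because the labels give 1 pooled library and no replicate numbers per culture.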

Other observations

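The 5307 cells with no tag had 1.68% mt-coded UMIs and 2.10% nuclear-coded UMIs of nuclear genes, and the 1068 cells with more than 1 tag had 0.713% and 2.01%. Untagged cells held 1.02 (1.01 to 1.03) mt-Co1 UMIs per mt-Cytb UMI. Over 5 bins of untagged cells by mt-coded share, the nuclear-coded share went from 2.18% in the lowest bin, with 0.204% mt-coded UMIs, through 2.20%, 2.12% and 2.05% to 1.94% in the highest, with 3.42%. Of all nuclear genes, 20.2% were at least 25% higher and 17.9% at least 20% lower between tags 2 and 1, 20.0% and 16.4% between tags 3 and 1, and 7.55% and 4.45% between tags 4 and 2. Superoxide and peroxide removal in mitochondria was read from 6 nuclear genes, of which 1 was at least 25% higher and 2 were at least 20% lower between tags 3 and 1. Sod2, the superoxide dismutase of the matrix, was at 275, 256, 191 and 317 nuclear CPM in tags 1 to 4, and Txn2, the mitochondrial thioredoxin, at 87.1, 102, 131 and 102. Of 9 genes of pyruvate dehydrogenase and its transport and control, 1 was at least 25% higher and 2 at least 20% lower both between tags 2 and 1 and between tags 3 and 1, with Pdk4, a kinase that switches the enzyme off, at 31.0, 28.1, 55.6 and 33.9. Of 10 stress and apoptosis genes, 1 was at least 25% higher and 4 at least 20% lower in tag 2 to tag 1 and likewise in tag 3 to tag 1, with Hspd1, the chaperonin of the matrix, at 322, 436, 467 and 421, and Ddit3, a transcription factor of the unfolded protein response, furthest from 1 in the list at 192, 37.9, 43.6 and 34.1. Of 80 cytosolic ribosomal proteins, 1 and 2 were past these folds in tag 2 and 0 and 3 in tag 3. Of 4 fibroblast markers with at least 10 CPM, 3 were at least 20% lower in tag 2 to tag 1 and 3 at least 25% higher in tag 4 to tag 2. Col1a1, a collagen that VSMCs also make, was among the former only, at 547, 223, 392 and 267. Dcn, with the most UMIs of the 4, was among the latter only, at 453, 514, 673 and 688. No macrophage, endothelial or epithelial marker reached 10 CPM over all cells, where the highest were Csf1r at 3.999, Kdr at 2.36 and Krt19 at 5.92 CPM. Their part in the OXPHOS values was not tested.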
